A study of Mus musculus with 12 samples.

Results

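The genes described here encode proteins of elastic fibres and matricellular or adhesive proteins of the extracellular matrix. Elastin (Eln), the fibrillins (Fbn1, Fbn2) and the fibulins (Fbln2, Fbln5) form the elastic fibre group, and Sparc, fibronectin (Fn1), tenascin C (Tnc), periostin (Postn) and biglycan (Bgn) form the other. They were taken by gene symbol, by a rule that used no measured value. The list was nevertheless chosen with earlier results of these data known. All 10 were found among the 53090 gene rows of each library's table, and all 10 passed the filter on low counts that left 18638 genes for testing.

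The study measured ribosome-bound RNA from the retinas of C57BL/6 mice at 2 ages of postnatal vessel growth, to describe mural cells, the contractile and supporting cells on the outside of vessels. The P9 group held 6 libraries from postnatal day 9 and the P3 group 6 libraries from postnatal day 3. Mice of both groups had received tamoxifen by intraperitoneal injection on days 1 and 2, and RNA was purified after immunoprecipitation through an HA tag on ribosomes. The labels give the cell type as retinal pericytes. Which promoter drove the recombinase or the tag, whether a library came from 1 animal or from a pool, and any litter or batch are not stated in the labels. Since independent animals are not stated for the replicates, p-values speak only for the spread among libraries, and some of that spread may be technical.

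Elastic fibres are assembled outside the cell: tropoelastin is deposited on a scaffold of fibrillin microfibrils, fibulins help to place it there, and lysyl oxidases cross-link it. Matricellular proteins are secreted into the matrix but mainly tune how cells attach to it and respond to growth factors, largely through integrins and syndecans. In developing vessels pericytes, smooth muscle cells and endothelial cells all contribute to this matrix, and fibronectin and tenascin C are also made by retinal astrocytes and other glia.

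Library totals ran between 26839599 and 37776172 expected counts, and levels are given as CPM, counts scaled by TMM factors to a common library size. A level of 1 CPM stood for 25.8 to 38.5 counts. The markers of the labelled cell type were present at both ages and far more abundant at P9. The summed CPM of 16 pericyte markers was 2903 to 6486 in P9 libraries and 415 to 1430 in P3 libraries. Of the 16 markers 14 were higher at P9, beside 26.1% of all tested genes, and none was at 0 in all libraries of an age. The sum of 11 smooth muscle markers was 318 to 485 CPM at P9 and 111 to 189 CPM at P3. Markers of other cells were present too. The rod sum was 8830 to 17752 CPM at P9 and 1518 to 3370 at P3, the lens sum was 58.4 to 1590 at P9 and 4537 to 12683 at P3, and the retinal progenitor sum was 878 to 1115 at P9 and 1580 to 2129 at P3. Beside 26.1% higher and 25.6% lower over all tested genes, 8 of 15 endothelial markers were higher at P9 and 1 was lower. Their sum was 780 to 935 CPM at P9 and 949 to 1075 CPM at P3, of which Kdr, a VEGF receptor, made up 564 to 656 CPM at P9 and 787 to 990 CPM at P3. The other 14 summed to 165 to 345 CPM at P9 and 43.2 to 169 CPM at P3. In such mixed samples, more cells of a type and more RNA per cell cannot be told apart.

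P3 replicate 1 stood apart in fibroblast markers. The summed CPM of 12 fibroblast genes was 629 in that library, against 116 to 181 in the other P3 libraries and 223 to 373 in P9 libraries. Its Col1a1, a chain of the main fibrillar collagen, was at 196 CPM, and its Dcn, the proteoglycan decorin, was at 21.8 CPM. It was the highest of the 12 libraries for 3 of the 10 genes (Eln, Fbln2 and Fbln5), for 8 of 11 tested fibroblast markers and for 8.83% of all tested genes. Results that this library moved across the threshold or by over 1.5 times are given with and without it.

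At P9 against P3, 3 of the 10 genes were higher (Bgn, Postn and Sparc), 2 were lower (Fbn2 and Fbln2) and 5 did not pass the test (Eln, Fbn1, Fbln5, Fn1 and Tnc), by edgeR's quasi-likelihood test at an adjusted p under 0.05. Of all tested genes 51.8% were called in either direction, 26.1% higher and 25.6% lower, so the number of calls among the 10 lay close to the background. For the 3 higher genes every P9 library lay above every P3 library, as for 16.3% of all tested genes. For the 2 lower genes every P9 library lay below every P3 library, as for 15.4% of all tested genes. The median log2 fold change was 0.14 over the 10 genes and -0.0018 over all tested genes. Without P3 replicate 1 the count was 5 higher and 3 lower, because Fbn1 and Fbln5 then passed as higher and Fn1 as lower.

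**Figure D1:**
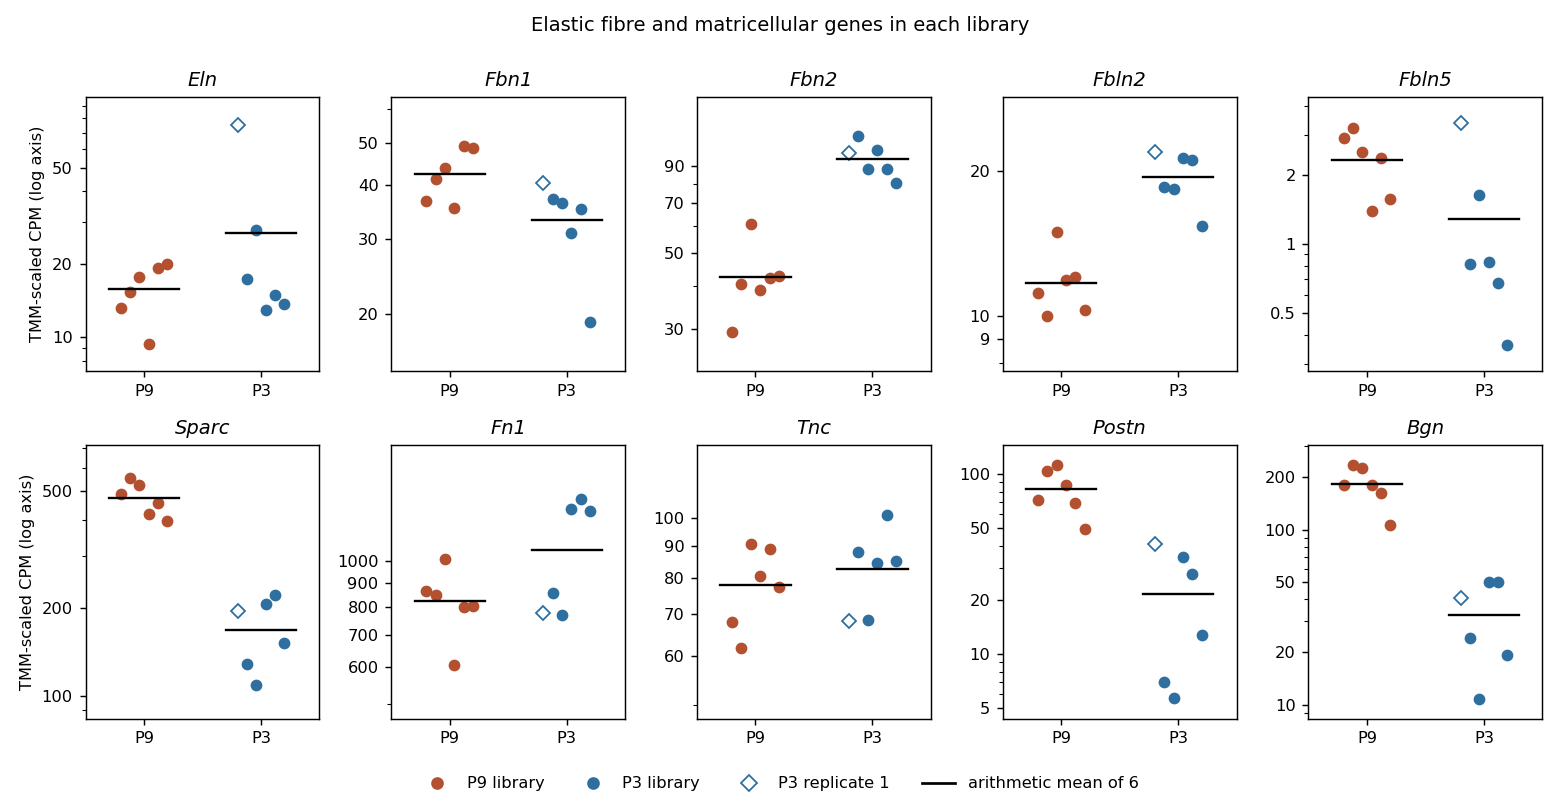
TMM-scaled CPM of the 10 genes in each of the 6 P9 and 6 P3 libraries (log axes, points are libraries, lines are arithmetic means, the open diamond is P3 replicate 1). Bgn, Postn and Sparc have every P9 library above every P3 library, Fbn2 and Fbln2 have every P9 library below, and the Eln value of 75.3 CPM in P3 replicate 1 lies far above the other libraries.

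The promoters of the 3 higher genes and of Fbln2 are shown because the P9 and P3 libraries did not overlap for these genes. The ages did not overlap for Fbn2 either, but no promoter window was taken for it. Each run gives 250 bases before and 50 after the RefSeq start on GRCm38.p6, 5′ to 3′ on the gene's strand, with capitals marking matches to 5 short motifs searched on both strands. A match on the opposite strand appears as its reverse complement (TGTCTG for the CAGA box, CCGCCC for the GC box). The motifs were the TATA box (TATAAA), the AP-1 site (TGANTCA), the TEAD site (GGAATG), the CAGA box bound by SMAD proteins (CAGACA) and the GC box (GGGCGG). Promoter windows were taken for 7 of the 10 genes, without Fbn2, Eln and Fn1. The window of Fbln2 is that of the first start RefSeq lists. The windows are chrX:73483351-73483650 on the plus strand for Bgn, chr3:54359017-54359316 on the plus strand for Postn, chr11:55420031-55420330 on the minus strand for Sparc and chr6:91212514-91212813 on the plus strand for Fbln2.
Bgn: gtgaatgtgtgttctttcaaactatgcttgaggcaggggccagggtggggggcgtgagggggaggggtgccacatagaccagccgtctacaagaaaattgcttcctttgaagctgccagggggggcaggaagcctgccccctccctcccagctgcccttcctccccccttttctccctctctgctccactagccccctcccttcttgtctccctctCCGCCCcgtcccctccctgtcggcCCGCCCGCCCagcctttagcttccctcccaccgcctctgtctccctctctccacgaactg
Postn: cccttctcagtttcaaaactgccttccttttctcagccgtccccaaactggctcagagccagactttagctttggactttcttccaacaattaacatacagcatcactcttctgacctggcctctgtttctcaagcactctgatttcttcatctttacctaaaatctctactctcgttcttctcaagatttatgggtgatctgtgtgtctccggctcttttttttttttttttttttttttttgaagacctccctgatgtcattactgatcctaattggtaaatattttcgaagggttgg
Sparc: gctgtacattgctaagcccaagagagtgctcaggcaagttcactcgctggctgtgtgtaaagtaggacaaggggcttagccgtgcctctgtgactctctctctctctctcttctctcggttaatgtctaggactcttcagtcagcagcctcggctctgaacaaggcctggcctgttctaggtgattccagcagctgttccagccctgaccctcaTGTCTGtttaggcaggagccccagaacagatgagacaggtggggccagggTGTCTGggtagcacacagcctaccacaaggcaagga
Fbln2: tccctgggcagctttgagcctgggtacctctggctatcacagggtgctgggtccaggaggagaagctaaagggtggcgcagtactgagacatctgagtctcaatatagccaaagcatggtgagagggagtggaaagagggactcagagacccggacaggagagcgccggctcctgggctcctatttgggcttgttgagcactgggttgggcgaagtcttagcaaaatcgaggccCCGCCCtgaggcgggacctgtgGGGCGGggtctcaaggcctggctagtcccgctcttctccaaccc
The Bgn window held 3 GC boxes, 2 of which overlap, and the Fbln2 window held 2 GC boxes, a motif found in 35.7% of 32851 promoters of the same length. The Sparc window held 2 CAGA boxes, a motif found in 21% of these promoters. The Postn window held 0 matches to any of the 5 motifs. The TATA box was found in 13.6%, the AP-1 site in 7.81% and the TEAD site in 14.7% of all promoters, and in 0 of the 4 windows shown. The higher genes thus shared none of the searched motifs, and a match describes letters in the window, not a site in use.

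Elastin itself did not pass the test. Eln (ENSMUSG00000029675.12, chr5:134702595-134747368), the core of the elastic fibre, had 9.43, 16.5 and 20.1 CPM as its lowest, median and highest values in P9 libraries, against 13.0, 16.2 and 75.3 CPM in P3 libraries. The ages overlapped, with medians almost equal and 1 P3 library far above the rest. Its mean was 15.9 ± 4.05 CPM at P9 and 27.03 ± 24.3 CPM at P3 (SD, n = 6 each), and the log2 fold change was -0.77 ± 0.40 (SE, adjusted p = 0.118 in edgeR). Without P3 replicate 1 the P3 mean was 17.4 ± 6.00 CPM (SD, n = 5) and the log2 fold change -0.13 (adjusted p = 0.659 in edgeR).

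Of the fibrillin genes, Fbn2 was lower at P9 and Fbn1 did not pass the test. Fbn2 (ENSMUSG00000024598.8, chr18:58008623-58210572), which encodes a fibrillin prominent in the microfibrils of developing tissue, had 29.4, 41.5 and 60.7 CPM as its lowest, median and highest values at P9, against 80.1, 93.0 and 110 CPM at P3. Every P9 library was therefore lower than every P3 library. The mean was 42.5 ± 10.2 CPM at P9 and 94.1 ± 10.7 CPM at P3 (SD, n = 6 each), 2.21-fold lower at P9 (log2 fold change -1.15 ± 0.14 SE, adjusted p = 7.78e-06 in edgeR). Fbn1 (ENSMUSG00000027204.13, chr2:125300594-125506485), the main fibrillin of mature tissue, had 35.4, 42.6 and 49.3 CPM at P9 and 19.2, 35.8 and 40.4 CPM at P3. These ranges overlapped, and P3 replicate 6 held the lowest value. The log2 fold change was 0.36 ± 0.15 (SE, adjusted p = 0.0597 in edgeR). It passed the threshold without P3 replicate 1 (0.42, adjusted p = 0.0375) and without P9 replicate 4 (0.41, adjusted p = 0.0455). It shrank without P3 replicate 6 (0.24, adjusted p = 0.0709) and without P9 replicates 5 and 6 (0.25, adjusted p = 0.267).

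A ratio within each library is free of library scaling, and the ratio of Fbn1 to Fbn2 separated the ages. Its lowest and highest values were 0.721 and 1.25 at P9, against 0.239 and 0.413 at P3. The geometric mean ratio was 1.02 at P9 and 0.346 at P3, a difference of 1.56 on the log2 scale or 2.94-fold (exact two-sided permutation test over 924 assignments of 6 against 6 libraries, p = 0.00216, adjusted p = 0.00325 over 3 ratios). All 6 P9 libraries lay above all 6 P3 libraries. The level of such a ratio also carries the lengths of the transcripts, which were not used here, so the difference between the ages can be read but not which gene was the more abundant. Neither this ratio nor those of the other gene pairs is free of the mix of cells in a library. The part of that mix in the ratios was not tested.

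The fibulin genes also differed, although the call on Fbln5 depended on 1 library and on the model. Fbln2 (ENSMUSG00000064080.12, chr6:91212460-91272540), a fibulin that binds fibronectin and fibrillin and is found in vessel walls, had 10.02, 11.5 and 14.9 CPM as its lowest, median and highest values at P9, against 15.4, 19.8 and 21.8 CPM at P3. The ages did not overlap. The mean was 11.7 ± 1.76 CPM at P9 and 19.4 ± 2.46 CPM at P3 (SD, n = 6 each), 1.65-fold lower at P9 (log2 fold change -0.72 ± 0.12 SE, adjusted p = 0.000146 in edgeR). Fbln5 (ENSMUSG00000021186.9, chr12:101746565-101819119), which tethers elastin to cells and microfibrils and is needed for elastic fibres to form in mice, was the least covered of the 10, with 12 to 124 counts per library. It had 1.39, 2.45 and 3.22 CPM at P9 and 0.361, 0.826 and 3.37 CPM at P3. The highest single value belonged to P3 replicate 1, and the next P3 library was at 1.63 CPM.

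For Fbln5 the log2 fold change was 0.86 ± 0.46 (SE, adjusted p = 0.129 in edgeR) with all 12 libraries. Without P3 replicate 1 the P3 mean was 0.864 ± 0.467 CPM (SD, n = 5), against 2.33 ± 0.725 CPM at P9 (SD, n = 6), and the log2 fold change was 1.44 (adjusted p = 0.00670 in edgeR). With all 12 libraries Fbln5 also passed as higher in limma-voom (1.22, adjusted p = 0.0259) and in edgeR with the fibroblast markers as a covariate (1.14, adjusted p = 0.00856), so the call depended on that library and on the model. The ratio of Fbln5 to Fbln2 had a geometric mean of 0.192 at P9 and 0.0512 at P3, a difference of 1.90 on the log2 scale or 3.74-fold (exact two-sided permutation test, p = 0.00649, adjusted p = 0.00649 over 3 ratios). P3 replicate 1, at 0.154, lay within the P9 range of 0.117 to 0.321, and the other 5 P3 libraries, at 0.0235 to 0.0890, lay below it. The log2 difference without P3 replicate 1 was 2.22 (exact permutation test, adjusted p = 0.00216).

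**Figure D2:**
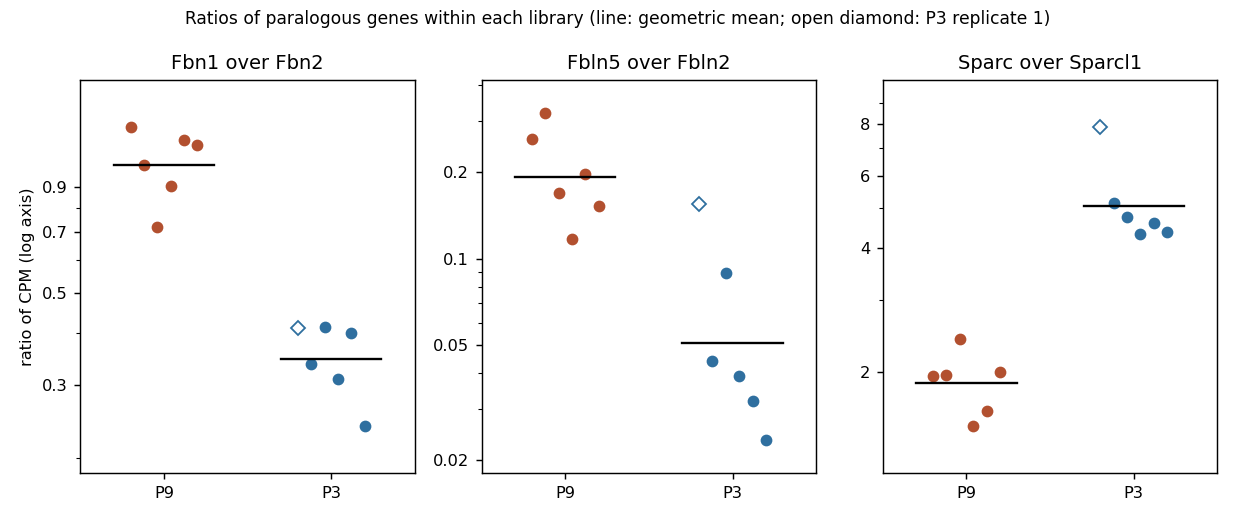
Ratios of TMM-scaled CPM of paralogous genes in each of the 6 P9 and 6 P3 libraries (log axes, lines are geometric means, the open diamond is P3 replicate 1). The ratio of Fbn1 to Fbn2 was 2.94-fold higher at P9, that of Fbln5 to Fbln2 was 3.74-fold higher at P9 with 1 P3 library inside the P9 range, and that of Sparc to Sparcl1 was 2.69-fold lower at P9.

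Bgn changed most among the 10. This gene (ENSMUSG00000031375.17, chrX:73483601-73495936) encodes biglycan, a small leucine-rich proteoglycan that binds collagen and TGF-beta. It had 107, 180 and 235 CPM as its lowest, median and highest values in P9 libraries, against 10.9, 32.4 and 50.6 CPM in P3 libraries. The lowest P9 library lay above the highest P3 library. The mean was 181 ± 46.2 CPM at P9 and 32.7 ± 16.9 CPM at P3 (SD, n = 6 each), a 5.54-fold rise (log2 fold change 2.47 ± 0.33 SE, adjusted p = 2.02e-05 in edgeR).

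Postn (ENSMUSG00000027750.16, chr3:54359267-54391041) encodes periostin, a secreted protein that binds integrins, collagen and tenascin C. Its lowest, median and highest values were 49.5, 79.5 and 112 CPM at P9, against 5.70, 20.2 and 41.1 CPM at P3. Again the ages did not overlap, although the P3 libraries differed widely among themselves, with P3 replicate 1 the highest of them. The mean was 82.2 ± 23.3 CPM at P9 and 21.5 ± 15.0 CPM at P3 (SD, n = 6 each), a 3.82-fold rise (log2 fold change 1.93 ± 0.42 SE, adjusted p = 0.00133 in edgeR). Without P3 replicate 1 the log2 fold change was 2.22 (adjusted p = 0.000586 in edgeR).

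Sparc (ENSMUSG00000018593.13, chr11:55394159-55420080) encodes a collagen-binding glycoprotein, also called osteonectin, that is made by growing vessels. It had 394, 472 and 553 CPM as its lowest, median and highest values at P9, against 109, 174 and 221 CPM at P3. The ages were far apart and the P9 libraries close together. The mean was 472 ± 61.0 CPM at P9 and 169 ± 45.2 CPM at P3 (SD, n = 6 each), a 2.80-fold rise (log2 fold change 1.48 ± 0.16 SE, adjusted p = 2.98e-06 in edgeR).

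The paralogue of Sparc rose more than Sparc did. Sparcl1, which encodes hevin, averaged 251.4 ± 37.7 CPM at P9 and 33.9 ± 11.6 CPM at P3 (SD, n = 6 each), with a log2 fold change of 2.89 ± 0.20 (SE, adjusted p = 5.89e-08 in edgeR). The geometric mean ratio of Sparc to Sparcl1 was 1.88 at P9 and 5.06 at P3, a log2 difference of -1.43 or 2.69-fold lower at P9 (exact two-sided permutation test, p = 0.00216, adjusted p = 0.00325 over 3 ratios). All 6 P9 libraries, at 1.48 to 2.41, lay below all 6 P3 libraries, at 4.33 to 7.88.

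Fn1 and Tnc did not pass the test. Fn1 (ENSMUSG00000026193.15, chr1:71585473-71653280), which encodes fibronectin, the adhesive protein that integrins assemble into fibrils, had 606, 827 and 1013 CPM as its lowest, median and highest values at P9, against 770, 1070 and 1358 CPM at P3. The ages overlapped, and the P3 libraries fell into 3 values between 770 and 859 CPM and 3 between 1280 and 1358 CPM. The mean was 824 ± 132 CPM at P9 and 1056 ± 281 CPM at P3 (SD, n = 6 each), with a log2 fold change of -0.36 ± 0.16 (SE, adjusted p = 0.0819 in edgeR). It passed the threshold as lower without P3 replicate 1 (-0.43, adjusted p = 0.0383) and without P3 replicate 3 (-0.44, adjusted p = 0.0368). Without P3 replicates 4 and 5 the log2 fold change shrank to -0.16 (adjusted p = 0.425 in edgeR).

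Tnc (ENSMUSG00000028364.15, chr4:63959785-64047015), which encodes tenascin C, a large glycoprotein that weakens adhesion to fibronectin, had 61.9, 79.1 and 90.8 CPM at P9 and 68.3, 85.02 and 101 CPM at P3 as its lowest, median and highest values. These ranges covered nearly the same span. The mean was 78.0 ± 11.5 CPM at P9 and 82.7 ± 12.5 CPM at P3 (SD, n = 6 each), and the log2 fold change was -0.084 ± 0.12 (SE, adjusted p = 0.567 in edgeR). Beside 26.1% higher and 25.6% lower over all tested genes, 3 of 8 astrocyte markers were higher and 2 lower at P9. Their sum was 127 to 219 CPM at P9 and 119 to 209 CPM at P3, and without Pdgfra, the most abundant by CPM, it was 38.2 to 95.0 CPM at P9 and 48.6 to 148 CPM at P3. The part of astrocyte markers in the values of Fn1 and Tnc was not tested.

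The summed CPM of the pericyte markers, like the 3 higher genes, was higher at P9. This sum was 5.14-fold higher (4474 ± 1207 CPM at P9 and 870 ± 402 CPM at P3, SD, n = 6 each), a difference of 2.45 in mean log2 values. Relative to this sum in the same library, Bgn differed by 0.18 and Postn by -0.18 between P9 and P3 on the log2 scale, and the ages overlapped for both. Taking the ratio narrowed the spread between libraries for Bgn and Postn but not for Sparc at P9. No ratio to the smooth muscle, endothelial or another marker sum was taken, so the narrowing cannot be called particular to pericyte markers. The SD of the log2 Bgn value was 0.18 as a ratio and 0.41 as CPM at P9, and 0.46 as a ratio and 0.89 as CPM at P3. For Postn it was 0.20 as a ratio and 0.43 as CPM at P9, and 0.90 as a ratio and 1.22 as CPM at P3. For Sparc it was 0.28 as a ratio and 0.19 as CPM at P9, and 0.38 as a ratio and 0.41 as CPM at P3. Sparc was also lower at P9 by 0.93 relative to the pericyte sum, with no overlap between the ages.

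Relative to the same sum, the log2 difference between P9 and P3 was -1.27 for Fbln5, -2.06 for Fbn1, -2.53 for Tnc, -2.78 for Fn1, -2.93 for Eln, -3.18 for Fbln2 and -3.62 for Fbn2. The ages overlapped for Fbln5 and not for the other 6. These ratios are a description without a test, and the part of the pericyte markers in the differences of the 10 genes was not tested. With the mean of the pericyte markers as a covariate in the edgeR model, 0 of the 10 genes were called in either direction (adjusted p = 0.933 for Bgn, 0.660 for Postn, 0.638 for Sparc, 0.0649 for Fbn2 and 0.0697 for Fbln2). The pericyte sums of the ages did not overlap, so that the covariate and age cannot be told apart well, and over all tested genes 423 were called higher and 418 lower in that model.

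**Figure D3:**
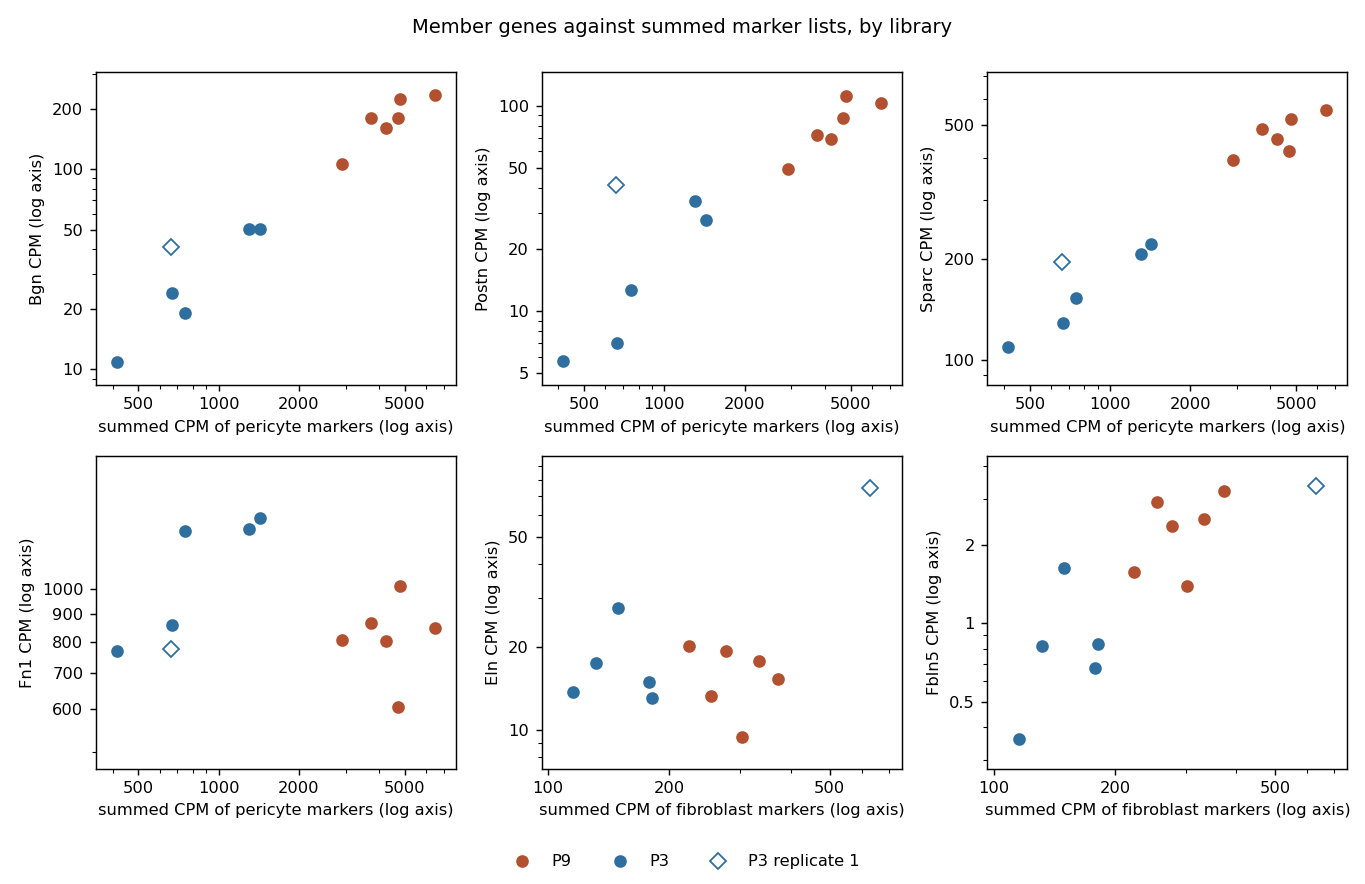
TMM-scaled CPM of 6 genes against the summed CPM of the pericyte list (Bgn, Postn, Sparc, Fn1) or the fibroblast list (Eln, Fbln5), 1 point per library (log axes, the open diamond is P3 replicate 1). Bgn, Postn, Sparc and the pericyte sum are all higher at P9, and the P3 values of Fn1 fall into 3 low and 3 high libraries. P3 replicate 1 has the highest fibroblast sum (629 CPM) and the highest Eln and Fbln5 values.

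Among other genes of the elastic fibre, Mfap4 and Mfap2 fell and Adamtsl4 rose at P9. Of 21 partners of elastic fibre assembly, all tested, 2 were higher, 7 were lower and 12 did not pass the test, with a median log2 fold change of -0.40 beside -0.0018 for all tested genes. Over all tested genes 26.1% were higher and 25.6% lower, and the list is too short to read much from its counts. Of 11 retinal progenitor markers 10 were also lower at P9, and their part in these values was not tested. Mfap4, which encodes a glycoprotein that binds elastin and fibrillin, had the smallest adjusted p of the list. It averaged 11.3 ± 7.38 CPM at P9 and 109 ± 16.8 CPM at P3 (SD, n = 6 each; log2 fold change -3.27 ± 0.30 SE, adjusted p = 6.19e-07 in edgeR). Its P9 libraries lay between 6.62 and 26.1 CPM and its P3 libraries between 94.1 and 137 CPM, with no overlap. Mfap2, which encodes a small glycoprotein of fibrillin microfibrils, was 1.82-fold lower (26.6 ± 4.55 CPM at P9 and 48.3 ± 4.71 CPM at P3, SD, n = 6 each; adjusted p = 1.65e-05 in edgeR).

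In the other direction, Adamtsl4, which encodes a secreted protein that binds fibrillin microfibrils, was 2.77-fold higher (25.1 ± 4.18 CPM at P9 and 9.03 ± 2.26 CPM at P3, SD, n = 6 each; adjusted p = 4.84e-06 in edgeR). Adamts10, a secreted protease of the same superfamily, had the highest CPM of the partners that did not pass, at 88.6 ± 10.1 CPM at P9 and 106 ± 30.8 CPM at P3 (SD, n = 6 each; adjusted p = 0.206 in edgeR). P3 replicate 1 was the highest library for 6 of the 21 partners. Without it the count was 5 higher and 8 lower, because Efemp1 (log2 fold change 1.73, adjusted p = 0.000299), Lox (1.62, adjusted p = 0.00586) and Adamtsl5 (0.96, adjusted p = 0.0356) also passed as higher and Emilin1 as lower (-0.54, adjusted p = 0.0305). Efemp1 encodes a fibulin and Lox the enzyme lysyl oxidase that cross-links elastin and collagen. These 4 genes are named after their values were seen.

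Among matricellular partners, Sparcl1, Spock2 and Spock3 rose. Of 22 genes, 19 were tested, of which 10 were higher, 2 were lower and 7 did not pass, beside 26.1% higher and 25.6% lower over all tested genes. The median log2 fold change was 0.84, beside -0.0018 over all tested genes. With the pericyte covariate 2 of the 19 were higher and 0 lower. Of 10 Müller glia markers 7 were also higher and 1 was lower at P9, and 12 of 12 rod markers were higher. The part of glial and rod markers in the values of this list was not tested. The Spock genes encode testicans, proteoglycans of the SPARC family that are abundant in nervous tissue, and all 3 were higher. Spock1 was 1.44-fold higher (38.5 ± 1.49 CPM at P9 and 26.7 ± 3.93 CPM at P3, SD, n = 6 each; adjusted p = 0.000270 in edgeR) and is named to complete the family. Spock2 was 2.01-fold higher (222 ± 24.0 CPM at P9 and 111 ± 8.24 CPM at P3, SD, n = 6 each; adjusted p = 2.43e-07 in edgeR). Spock3 was 2.82-fold higher (31.2 ± 4.55 CPM at P9 and 11.1 ± 2.57 CPM at P3, SD, n = 6 each; adjusted p = 1.28e-06 in edgeR). Thbs1, which encodes a thrombospondin that restrains vessel growth, had the highest CPM of those that did not pass, at 35.9 ± 6.90 CPM at P9 and 26.7 ± 9.03 CPM at P3 (SD, n = 6 each; adjusted p = 0.0973 in edgeR). Without P3 replicate 1 the count was 13 higher and 2 lower, with Thbs4, Tgfbi and Ccn1 added, which are likewise named after their values were seen.

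Among small leucine-rich proteoglycans, the family of Bgn, Aspn and Podn rose and Ogn fell. Of 10 other members 7 were tested, of which 2 were higher, 1 was lower and 4 did not pass, close to the 26.1% higher and 25.6% lower over all tested genes in so short a list. The median log2 fold change was -0.085. Aspn, which encodes asporin, a close relative of biglycan, averaged 38.5 ± 11.2 CPM at P9 and 2.34 ± 1.497 CPM at P3 (SD, n = 6 each; log2 fold change 4.03 ± 0.38 SE, adjusted p = 8.67e-07 in edgeR). All P9 libraries, at 26.4 to 51.3 CPM, lay above all P3 libraries, at 0.775 to 4.26 CPM. Podn, which encodes podocan, was 3.26-fold higher (47.0 ± 5.34 CPM at P9 and 14.4 ± 4.005 CPM at P3, SD, n = 6 each; adjusted p = 1.10e-06 in edgeR).

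Ogn, which encodes osteoglycin, was 2.20-fold lower (5.72 ± 3.61 CPM at P9 and 12.6 ± 1.97 CPM at P3, SD, n = 6 each; adjusted p = 0.00816 in edgeR), with overlap of single libraries. Prelp, which anchors basement membranes to connective tissue, had the highest CPM of those that did not pass, at 34.5 ± 5.63 CPM at P9 and 36.6 ± 6.94 CPM at P3 (SD, n = 6 each; adjusted p = 0.613 in edgeR). Dcn, Lum and Ogn of this list are also on the fibroblast list, and P3 replicate 1 was the highest library for 4 of the 7 tested genes. The part of fibroblast markers in these values was not tested.

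Genes of the matrix receptor list were mostly higher at P9, but its collagen and laminin receptors did not move as classes. Of 20 integrin, syndecan and collagen receptor genes 19 were tested, of which 13 were higher, 3 were lower and 3 did not pass, beside 26.1% higher and 25.6% lower over all tested genes. The median log2 fold change was 0.64. Of collagen receptor genes, Itga2 was 3.59-fold lower (adjusted p = 2.57e-05 in edgeR), while Itga1 and Ddr2 were higher (log2 fold changes 2.52 and 2.08). Of laminin receptor subunits, Itga7 was higher (1.21), and Itga3 (-0.16) and Itga6 (0.089) did not pass. These genes, apart from Itga3, are named after their values were seen. Itga4, an integrin subunit that binds fibronectin, was 2.78-fold higher (210 ± 27.01 CPM at P9 and 75.5 ± 17.2 CPM at P3, SD, n = 6 each; adjusted p = 6.73e-07 in edgeR). Itga8, an integrin subunit of vascular and visceral smooth muscle, had a log2 fold change of 2.61 ± 0.26 (SE, adjusted p = 1.24e-06 in edgeR), with 10.4 to 26.4 CPM in P9 libraries and 1.90 to 4.43 CPM in P3 libraries.

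Itgav, the subunit of the receptors for fibronectin, vitronectin and periostin, was 1.79-fold higher (102 ± 14.3 CPM at P9 and 56.9 ± 5.83 CPM at P3, SD, n = 6 each; adjusted p = 5.94e-06 in edgeR). Itga3, a laminin receptor subunit, had the highest CPM of those that did not pass, at 68.3 ± 2.63 CPM at P9 and 76.4 ± 7.51 CPM at P3 (SD, n = 6 each; adjusted p = 0.0737 in edgeR). Without P3 replicate 1 the count of receptors was 11 higher and 2 lower. With the pericyte covariate it was 0 higher and 1 lower, and with the mean of the endothelial markers as covariate 6 were higher. The part of either cell type in the receptor values was not tested.

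**Figure D4:**
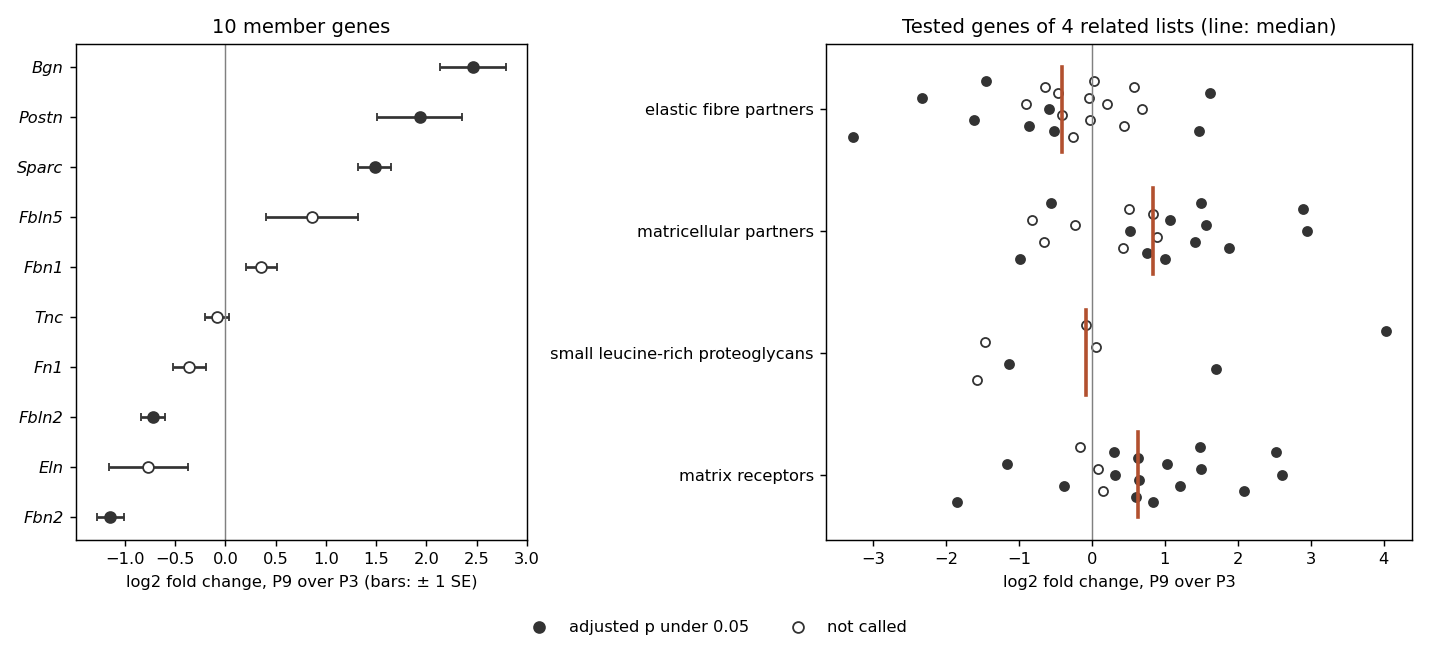
Log2 fold changes, P9 over P3, of the 10 genes with bars of 1 SE (left) and of the tested genes of 4 related lists (right, the line is the list's median). Filled points passed the edgeR test at an adjusted p under 0.05, and the medians are -0.40 for elastic fibre partners, 0.84 for matricellular partners, -0.085 for small leucine-rich proteoglycans and 0.64 for matrix receptors.

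For each of the 10 genes the most similar profile over the 12 libraries was sought among 10962 other genes of at least 10 CPM on average (10963 for Fbln5), by the root mean square difference of centred log2 CPM values. Smaller values mean a closer match, but a gene that varies little lies close to many genes, so values do not rank the 10 genes. The median difference to all compared genes was 0.330 for Tnc, 0.426 for Fn1, 0.438 for Fbn1, 0.460 for Fbln2 and 0.662 for Fbn2. It was 0.769 for Eln, 0.838 for Sparc, 0.967 for Fbln5, 1.42 for Postn and 1.47 for Bgn. The smallest value was that of Sparc with Endod1 (0.103 log2 units). Next came Tnc with Arid1b (0.111), Fbln2 with Tcp11 (0.117), Fn1 with Fgd1 (0.147), Fbn1 with Zfp839 (0.164) and Fbn2 with Draxin (0.166). Bgn was matched by Cnn2, which encodes a calponin that binds actin, at 0.195. Postn was matched by Anpep, a membrane peptidase on the pericyte list, at 0.329, and Bgn came next after Lgals1 at 0.426. The largest values were those of Fbln5 with Col12a1 (0.378), a fibril-associated collagen, and of Eln with Ttn (0.404), the giant sarcomere protein titin. Both Fbln5 and Eln had their highest value in P3 replicate 1. These matches share libraries and depth with the genes they match and carry no test.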

How the data were processed

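The authors deposited RSEM expected counts per gene for each library, estimated read counts not scaled to depth. The build mm10 and the tools STAR, RSEM, limma, Trim Galore and FastQC are named in the submitters' processing notes, and per the labels' protocols the libraries were stranded. Of the deposited expected counts 15.9% were not whole, and all were rounded before testing. Sequencing depth per library is given with the library totals, and a gene at 1 CPM rests on 25.8 to 38.5 counts.

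Low counts were removed with filterByExpr (34452 of 53090 rows), libraries were scaled by TMM, and P9 was set against P3 in edgeR 4.0.16 under R 4.3.3 (quasi-likelihood F test, two-sided). P-values were adjusted by the Benjamini-Hochberg method across the 18638 genes tested. Of rows sharing a symbol (240 repeats) the most abundant was used. The SE of a log2 fold change is its size over the square root of the F statistic. Ratios and profiles used CPM from the same scaling, the profiles as log2 CPM with a prior count of 2. Coordinates and promoters are from RefSeq on GRCm38.p6, matched by symbol. Transcript lengths were not used here, so CPM ranks between genes, which only the naming rule uses, are not corrected for length. DESeq2 1.42.0 and voom of limma 3.58.1 served as alternatives, beside other scalings, filters, covariates and left-out libraries. Figures were drawn with matplotlib 3.10.9 in Python 3.11.15.

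The 10 genes, the 4 related lists and the marker lists were chosen with earlier results of these data known. Named in each related list were the 3 called genes of smallest adjusted p with at least 10 CPM on average at 1 age, and the gene of highest CPM that did not pass. For each of the 10 genes the nearest profile was named. Groups came from the age in the labels, and replicate numbers follow the order of deposition. P9 replicates 5 and 6 carry names that are crossed between title and table, which touches no comparison of the ages. Only the edgeR fit was also run on simulated counts, in which far fewer genes differed than were called here. That run did not cover the ratios, lists or profiles.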

Additional observations from a re-analysis of the deposited data

Results flagged for a closer look

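Dixon's test at the 95% level was applied to 26 groups of 6 libraries (10 genes and 3 ratios at each age), once on the values as printed and once on their log2. A library is named where its gap to the nearest other was too large a part of the group's range. Chance flags about 1 group in 20, and 2 groups were flagged on each scale. On CPM, Eln at P3 was flagged for P3 replicate 1, at 75.3 CPM against 13.0 to 27.7 CPM in the other P3 libraries, but not on log2. On log2, Fbn1 at P3 was flagged for P3 replicate 6, at 19.2 CPM against 31.0 to 40.4 CPM in the other P3 libraries, but not on CPM. On both scales the ratio of Sparc to Sparcl1 at P3 was flagged for P3 replicate 1, at 7.88 against 4.33 to 5.15 in the other P3 libraries, and without that library its log2 difference between P9 and P3 was -1.30.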

How the results depend on the processing

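The Fbn1 to Fbn2, Fbln5 to Fbln2 and Sparc to Sparcl1 ratios kept their direction and stayed past the threshold in all 16 alternatives run for them, with log2 differences of 1.45 to 1.65, 1.31 to 2.22 and -1.52 to -1.25 (adjusted p up to 0.0152, exact permutation tests). Scaling by library totals, median-ratio or upper-quartile factors and robust edgeR moved none of the counts by over 1.5 times. With libraries left out in turn, the number of the 10 genes called higher ranged from 3 to 5 and that of elastic fibre partners called higher from 2 to 5, both highest without P3 replicate 1. limma-voom and the fibroblast covariate each gave 5 of the 10 genes (Fbn1 and Fbln5 added) and 4 elastic fibre partners higher. A filter at 10 CPM left 1 elastic fibre partner higher, no filter gave 2 proteoglycans lower, and an adjusted p under 0.01 left 1 receptor lower. DESeq2 called Fn1 lower (adjusted p = 0.0364), and without P3 replicates 4 and 5 Eln was lower (-1.08, adjusted p = 0.0332) and Tnc turned to 0.0096.

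With the endothelial covariate 2919 genes were higher and 2966 lower, Tnc turned to 0.057, 1 elastic fibre partner and 6 receptors were higher, 2 proteoglycans were lower, and Postn no longer passed (0.91, adjusted p = 0.228). With the pericyte covariate 423 genes were higher and 418 lower, and Bgn (-0.12), Postn (-0.90) and Eln (0.63) turned sign. That model called 0 of the 10 genes higher and 0 lower, 0 elastic fibre partners higher and 2 lower, 2 matricellular partners higher and 0 lower, 0 proteoglycans in either direction, and 0 receptors higher and 1 lower. Scaling to the pericyte markers moved the median log2 fold change of all tested genes to -2.53, with 121 genes higher and 17446 lower. Fbn1 (-2.18), Fbln5 (-1.86), Sparc (-0.95) and Postn (-0.44) then turned sign, and all 4 stayed above that median. Under this scaling 0 of the 10 genes were higher and 8 lower, 0 elastic fibre partners higher and 21 lower, 0 matricellular partners higher and 16 lower, 1 proteoglycan higher and 6 lower, and 0 receptors higher and 16 lower. The cause was not tested. Fbln5, at 12 to 124 counts per library, is the gene most limited by depth. No paired analysis was possible because P9 and P3 libraries share no replicate numbers in their labels.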

Other observations

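The P3 libraries differed among themselves in ways no label accounts for, as seen after their values were examined. P3 replicates 4 and 5 had the highest pericyte sums of their age (1301 and 1430 CPM, against 415 to 746 CPM in the other 4), but also the highest P3 rod sums (3370 and 3085 CPM, against 1518 to 2096 CPM) and Müller glia sums (1556 and 1615 CPM, against 1087 to 1328 CPM). They had the highest P3 values of Sparc (206 and 221 CPM) and Bgn (50.6 and 50.5 CPM). Fn1 was at 1292, 1358 and 1280 CPM in P3 replicates 4, 5 and 6 and at 777, 859 and 770 CPM in P3 replicates 1, 2 and 3. Adamts10 was at 72.7, 66.8 and 104 CPM in P3 replicates 4, 5 and 6 and at 138, 135 and 120 CPM in P3 replicates 1, 2 and 3. At P9 the lowest pericyte sum (2903 CPM) and the lowest Bgn (107 CPM), Postn (49.5 CPM) and Sparc (394 CPM) values were all in P9 replicate 6.

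Mfap4, the elastic fibre partner of smallest adjusted p, was at 26.1 CPM in P9 replicate 3 and at 6.62 to 10.4 CPM in the other P9 libraries. The same library had the highest P9 values of Fbn2 (60.7 CPM), Fbln2 (14.9 CPM), Fn1 (1013 CPM) and Tnc (90.8 CPM), 4 genes that averaged higher at P3. Eln also averaged higher at P3, but its highest P9 value was in P9 replicate 6 (20.1 CPM). Postn, a gene called higher at P9, had its highest value of all libraries in P9 replicate 3 (112 CPM). P9 replicate 3 also had the highest P9 retinal progenitor sum (1115 CPM, against 878 to 1000 CPM in the others). Its rod sum was the lowest at P9 (8830 CPM, against 10208 to 17752 CPM).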
